A study of Homo sapiens with 15 samples.

Results

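In the late S-phase cells of this experiment, the RNA made during a 45 min pulse was separated from the RNA that was already there, gene by gene. The 3 Late_S libraries were taken from 15 libraries of U2OS, a human osteosarcoma cell line. Asynchronous U2OS cells received 4-thiouridine, a uridine analogue that cells build into new RNA, together with EdU, which marks replicating DNA. They were fixed and sorted by EdU and DNA content into Late_S, G1, Early_S and G2, with 3 libraries each, and 3 further libraries, No_alkylation, give the background. The labels give the No_alkylation libraries the same pulse but do not say which cells they held, and they do not say whether replicates came from separate cultures, so p-values measure the spread between these libraries, which may be technical. All groups share the cell line, the pulse, the fixation and the 500 ng of RNA per library. The series title speaks of synchronised cells, whereas the protocol describes sorting of unsynchronised ones.

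Alkylation makes the incorporated analogue read as C in place of T. A read with such a change is called a T>C read here, and the labelled share of a gene is its T>C reads as a percentage of all its reads. Each library was sequenced from the 3′ ends of polyadenylated RNA. New molecules can give a read without a conversion, so the other reads hold old RNA and some new RNA. Reads were summed over all regions of a gene name, which gave 19531 names. Of these, 8834 had at least 100 reads in each of the 3 Late_S and 3 No_alkylation libraries and were ranked by their mean Late_S share. A further 529 names reached 100 reads in Late_S and not in every No_alkylation library, and were not ranked.

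The amount of a message is set by how fast it is made and how fast it is destroyed. A message with a short half-life is replaced within a short pulse and therefore carries much label, whereas a long-lived message carries little. Messages for transcription factors and signalling regulators are known to be short-lived in many mammalian cells, and those for ribosomal proteins and metabolic enzymes long-lived. Because these cells were sorted by position in the cycle, a gene whose transcription starts or stops near late S also changes its labelled share, so that turnover and a change of synthesis cannot be told apart here.

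The Late_S libraries held 18352916, 19613647 and 21625091 reads, and 1826824, 1985678 and 2177818 of them were T>C reads. Their labelled share was 10.0% ± 0.0870 (SD, n = 3), against 1.01% ± 0.0179 in No_alkylation (SD, n = 3). The groups did not overlap, and the exact two-sided permutation test gave p = 0.1, the smallest value that 20 assignments of 3 against 3 libraries allow. Summed CPM of mesenchymal and osteoblast-lineage markers, the lineage of an osteosarcoma, was 5741 to 5895 in Late_S, and that of blood markers 0.918 to 2.997. COL1A2 and TWIST1 of the mesenchymal list had no read in Late_S, as did 6 of 8 blood markers. Epithelial markers summed to 1350 to 1461 CPM with KRT19, ESRP1 and GRHL2 at 0. Most of this sum came from KRT8 and KRT18, which averaged 750 and 623 CPM in Late_S, while EPCAM averaged 8.56. VIM alone averaged 2833 CPM of the mesenchymal sum.

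The fastest messages were almost entirely new after 45 min. DUSP1, a phosphatase that switches off MAP kinases, had a labelled share of 95.7%, 98.3% and 97.4% in the 3 Late_S libraries. Its mean was 97.1% ± 1.35 (SD, n = 3) from 1377 reads, against 0.108% in No_alkylation. DUSP1 was read on chromosome 5 between 172768090 and 172768761 on the minus strand (hg38), near its transcript end. It led the ranking, whose median was 9.91%.

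To show what stands before the start of some of these genes, the 130 bases upstream of the start are printed 5′ to 3′ for 7 of the fastest genes, from RefSeq on GRCh38.p14. Capitals mark TATAAA, the TATA box, where it begins 20 to 40 bases before the start, and TGACGTCA, the full site bound by CREB and ATF factors, which reads the same on both strands. Of the fastest 100, 79 had a promoter sequence to search. The 7 genes were chosen after the search of these 79, as all 4 with a TATA box and 3 of the 6 others with TGACGTCA.
DUSP1, chr5:172771196-172771325, minus strand: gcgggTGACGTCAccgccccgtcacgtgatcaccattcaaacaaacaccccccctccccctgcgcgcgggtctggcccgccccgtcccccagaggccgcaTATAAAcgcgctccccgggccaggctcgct
CTGF, chr6:131951373-131951502, minus strand: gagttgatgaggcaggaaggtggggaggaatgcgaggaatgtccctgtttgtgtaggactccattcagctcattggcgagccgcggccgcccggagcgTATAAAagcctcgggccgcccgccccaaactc
ID1, chr20:31605159-31605288, plus strand: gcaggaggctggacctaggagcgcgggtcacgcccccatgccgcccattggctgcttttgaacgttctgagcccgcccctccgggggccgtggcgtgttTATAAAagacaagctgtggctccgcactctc
FAM46A, chr6:81752682-81752811, minus strand: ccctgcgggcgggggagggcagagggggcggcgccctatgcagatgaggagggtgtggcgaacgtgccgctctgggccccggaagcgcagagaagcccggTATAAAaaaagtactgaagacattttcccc
CCNL1, chr3:157160148-157160277, minus strand: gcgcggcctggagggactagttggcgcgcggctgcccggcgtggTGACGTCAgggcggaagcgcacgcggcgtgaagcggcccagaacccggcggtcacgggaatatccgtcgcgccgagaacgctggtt
DNAJC27, chr2:24972095-24972224, minus strand: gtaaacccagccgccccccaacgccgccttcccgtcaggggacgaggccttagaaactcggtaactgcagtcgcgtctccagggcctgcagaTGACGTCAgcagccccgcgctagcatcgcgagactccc
ZNF561, chr19:9621233-9621362, minus strand: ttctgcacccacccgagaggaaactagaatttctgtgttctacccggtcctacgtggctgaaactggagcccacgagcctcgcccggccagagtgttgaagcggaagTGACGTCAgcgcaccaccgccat

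DUSP1 holds both motifs, with TATAAA beginning 30 bases and TGACGTCA 125 bases before the start. A promoter sequence was at hand for 79 of the fastest 100, 76 of the slowest 100 and 7151 of all ranked names. TATAAA, searched on the sense strand, stood in 4 of the 79 (5.06%), in 0 of the 76 and in 1.34% of the 7151. TGACGTCA, searched like the motifs after it in the 250 bases before the start on both strands, stood in 7 of 79 fast promoters (8.86%), in 0 of 76 slow ones and in 3.40% of all. CCAAT stood in 36.7% of fast, 26.3% of slow and 35.3% of all promoters, and GGGCGG in 62.0%, 77.6% and 70.4% in the same order. TGANTCA, a pattern wider than the AP-1 site because any base was allowed at its centre, stood in 5.06%, 7.89% and 3.68%. CTTCCG stood in 26.6%, 22.4% and 30.8%, and the CArG box in 1.27%, 0% and 1.01%. These are counts of letters in a window, not binding sites, and no test was made on them.

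MED26, a subunit of the Mediator complex, had shares of 98.9%, 92.9% and 94.3%, and TOPORS, a ubiquitin and SUMO ligase, 92.9%, 93.7% and 93.8%. TOB1, an antiproliferative protein that recruits the deadenylase complex, had 97.3%, 96.1% and 83.8%, with the third library apart from the others. CLK1, a kinase of splicing factors, averaged 92.1% ± 5.80, and ZFP36L2, which binds AU-rich elements and promotes decay, 90.7% ± 1.80 (SD, n = 3 each). FBXO5, which inhibits the anaphase-promoting complex, averaged 90.3% ± 8.72, with 99.4%, 89.5% and 82.0% in the libraries. EPC1, DUSP2, FEM1C, DNAJC27, SGK1, YOD1, AMOTL2 and BDNF complete the 15 names with the highest shares among single genes with at most 5% in No_alkylation and at most 20% multimapped reads, with means between 89.3% and 93.5%. AMOTL2, an angiomotin-family scaffold known as a target of YAP, was the most deeply read of the 15, at 90.8%, 88.8% and 88.8% on 3860, 3994 and 4574 reads.

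Names that begin with ZNF, most of them zinc finger proteins, made up 15 of the fastest 100, 1 of the slowest 100 and 1.87% of all ranked names. The fastest 100 spanned a median of 16.8 kb of genome by RefSeq, the slowest 100 49.2 kb and all ranked names 30.8 kb, but over all names the share and the gene span had a Spearman correlation of -0.04 (8588 names). This correlation is across genes of the same libraries and is a description. The share was negatively related to abundance, with a Spearman correlation of -0.23 with CPM over 8834 names. Both ends of the ranking held names of low abundance, with a median CPM of 16.9 in the fastest 100 and 17.6 in the slowest 100, against 42.1 in all ranked names. A read with more T positions can show a conversion more easily, and the share had a correlation of 0.14 with the number of T positions covered per read, which was 20.9 in the fastest, 17.3 in the slowest and 19.4 in all names by median. Ranked by conversions per covered T instead, 79 of the fastest 100 and 67 of the slowest 100 were the same names.

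**Figure D1:**
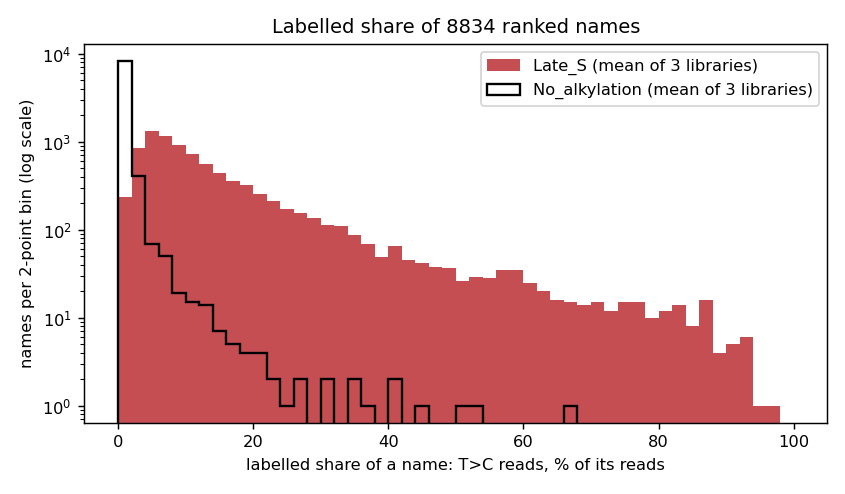
Histogram of the mean labelled share of the 8834 ranked names, in bins of 2 points, with the number of names on a log axis; filled bars are Late_S and the black outline is No_alkylation. Late_S spreads from 0 to 97.1% around a median of 9.91%, while most names in No_alkylation lie in the first bin.

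At the other end of the ranking, several messages carried no more label than the background. TLE2, a Groucho-family corepressor, NADK2, the mitochondrial NAD kinase, and B3GLCT, a glucosyltransferase of the endoplasmic reticulum, had 0 T>C reads among 542, 531 and 1303 reads, which allows shares of up to 0.554%, 0.565% and 0.230% (3 counts, counting error only). MAPK3, the kinase ERK1, had 0.168%, 0.486% and 0.270% on 1189, 1441 and 1482 reads, against 0.301% in No_alkylation. MAPK3 stood at its background, so only an upper range of its label was measured. Of the 8675 ranked names whose background was at most 5%, 234 had a mean share under 2%. Counted at any share, 37 of the 8675 were not above their own No_alkylation mean.

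The other named slow messages included CD109, a surface protein anchored by glycolipid, TNC, the matrix protein tenascin C, ITGA7, an integrin that binds laminin, and PNPLA6, a phospholipase. Their means were 0.0894%, 0.213%, 0.408% and 0.363%, on fewer than 530 reads in each library. TCEA2, SLCO1B3, PCSK1N, RBPMS, MFSD1 and AL162231.1 lay between 0.143% and 0.430%. The T positions covered per read differed among the slow names printed here, from 6.73 in PCSK1N to 24.5 in B3GLCT. The median of all ranked names was 19.4. AL162231.1 had 7.90, PNPLA6 10.3, TLE2 12.2 and MAPK3 12.6, and fewer T positions leave fewer chances to see a conversion. The order at the slow end was loose: leaving out 1 Late_S library kept 55 to 62 of the slowest 100, and 89 to 93 of the fastest 100. The last name inside the fastest 100 was PRAG1 at 74.4% and the first outside it RBM12B at 74.2%; at the slow end these were CC2D1A at 1.347% and PPM1M at 1.352%.

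Little-labelled messages were also found among the most deeply read. Among 1006 single-gene names with at least 3000 reads in every Late_S library, a limit chosen after the values were seen, the lowest was HCFC1R1 at 0.498%, 1.31% and 1.86%. Its reads covered 7.75 T positions on average, against a median of 19.4 over all ranked names. By conversions per covered T it had 0.177%, and COL6A1, of the same set, had 0.175%. MYBL2, a transcription factor of the cell cycle, had 2.03%, 2.04% and 1.92% on 14230, 15563 and 17419 reads, against 0.666% in No_alkylation. TALDO1, the pentose phosphate enzyme transaldolase, averaged 1.55% ± 0.155 beside a background of 1.21%, and EEF1D, an exchange factor of translation elongation, 1.88% ± 0.351 beside 0.554% (SD, n = 3 each). At the other end of the same set stood AMOTL2, CTGF, IER3, ZFP36L1 and ID1, all above 83%. The spread between libraries was larger than counting error, with a median variance of 7.55 times the binomial one, and over names of all shares the median SD was 0.887 points at 3000 or more reads per library and 5.43 points at 100 to 300 reads.

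**Figure D2:**
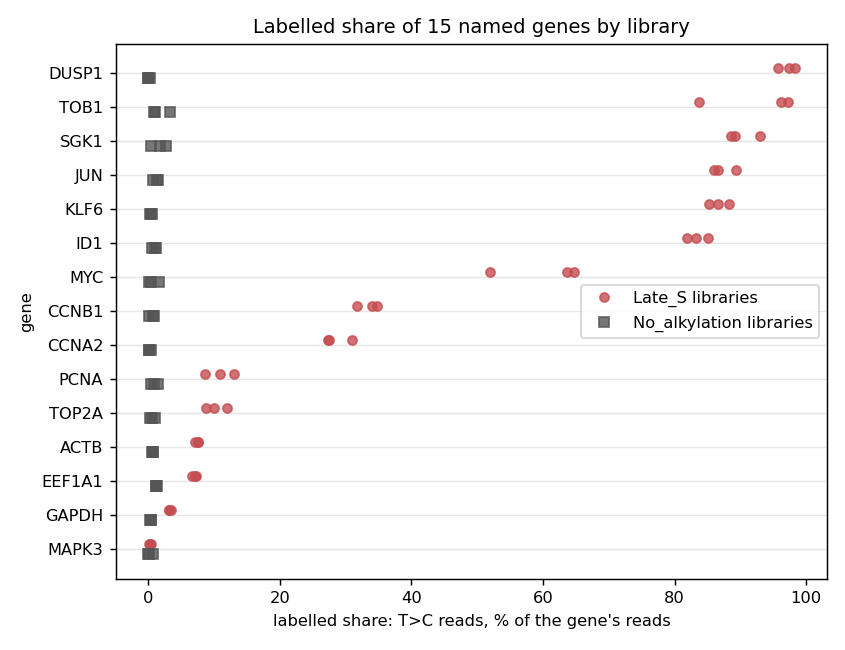
Labelled share, in percent of a gene's reads, of 15 named genes in each library; circles are the 3 Late_S libraries and squares the 3 No_alkylation libraries. DUSP1 lies at 95.7% to 98.3%, CCNB1 at 31.7% to 34.8% and GAPDH at 3.12% to 3.39%, and the 2 groups of libraries overlap only for MAPK3.

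Each name was tested for a different ratio of T>C to other reads than the trimmed mean of all names, using edgeR's quasi-likelihood test with the library as a block and Benjamini-Hochberg adjustment. Of 12071 names tested, 2689 were higher in T>C reads (22.3%) and 3018 lower (25%) at an adjusted p under 0.05. A name at the balance of this scale had a labelled share of 11.04% to 11.35%, depending on the library. Against No_alkylation, 9606 of 11539 names had a higher labelled share in Late_S (83.2%) by the same tool, and 0 had a lower one, with 1 lower at an unadjusted p under 0.05 and 3 lower by DESeq2.

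Immediate early genes, which cells switch on within minutes of a stimulus, had the highest median share of the 23 lists shown with 10 or more ranked members. Of 28 listed, 24 were tested, 17 rose in T>C reads and 0 fell, against 22.3% and 25% of all names, and the 17 ranked members had a median share of 67.6%, against 9.91% for all ranked names. JUN, a subunit of the AP-1 factor, had 86.6%, 86.1% and 89.4%, and its T>C to other ratio was higher by a log2 of 5.79 ± 0.14 (SE, adjusted p = 7.33e-20, edgeR). CTGF, a matricellular growth regulator, averaged 86.8% ± 2.73, and KLF6, a zinc finger factor, 86.7% ± 1.56 (SD, n = 3 each). MYC had 52.0%, 63.7% and 64.7% (log2 3.59 ± 0.31, adjusted p = 1.23e-09) and IER2 69.3%, 66.9% and 66.7% (log2 4.05 ± 0.17, adjusted p = 1.85e-15), though 57.5% of the reads of IER2 were multimapped. EGR1, a zinc finger factor of the same response, averaged 34.7% ± 2.56 (log2 2.07 ± 0.41, adjusted p = 0.000176). The ranked members with the lowest shares were SRF at 12.2%, JUND at 24.3% and ATF3 at 26.3%. Of these, SRF was not called (log2 0.10 ± 0.18, adjusted p = 0.667). FOS, the partner of JUN, had only 29, 53 and 37 reads, with shares of 62.1%, 13.2% and 54.1%, and did not pass the test (adjusted p = 0.186).

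Feedback inhibitors of signalling had 26 of 29 tested members higher and 0 lower, against 22.3% and 25% of all names, with a median share of 45.5%. Helix-loop-helix and homeobox factors had 20 of 29 higher and 1 lower, with a median of 46.3%. ID1, an inhibitor of helix-loop-helix factors, had 81.9%, 83.3% and 85.1% on 8152, 8975 and 9576 reads (log2 5.33 ± 0.08, adjusted p = 1.54e-23). ID3, its relative, averaged 82.1% ± 0.534 (SD, n = 3). KRAB zinc finger genes, which mostly silence transposons, had 59 of 100 tested members higher, 1 lower and a median share of 27.0%, with ZNF746 at 86.7% and ZNF90 at 3.68%. Among SOX, GATA, FOX and KLF factors 15 of 22 were higher, 0 lower, and SOX9 averaged 71.1% ± 0.422 (SD, n = 3). CDKN1A, the CDK inhibitor p21, had 47.7%, 48.1% and 47.7% (log2 2.87 ± 0.11, adjusted p = 3.27e-16). MDM2, a ubiquitin ligase, averaged 24.5% ± 5.77 (log2 1.35 ± 0.24, adjusted p = 6.12e-05).

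**Figure D3:**
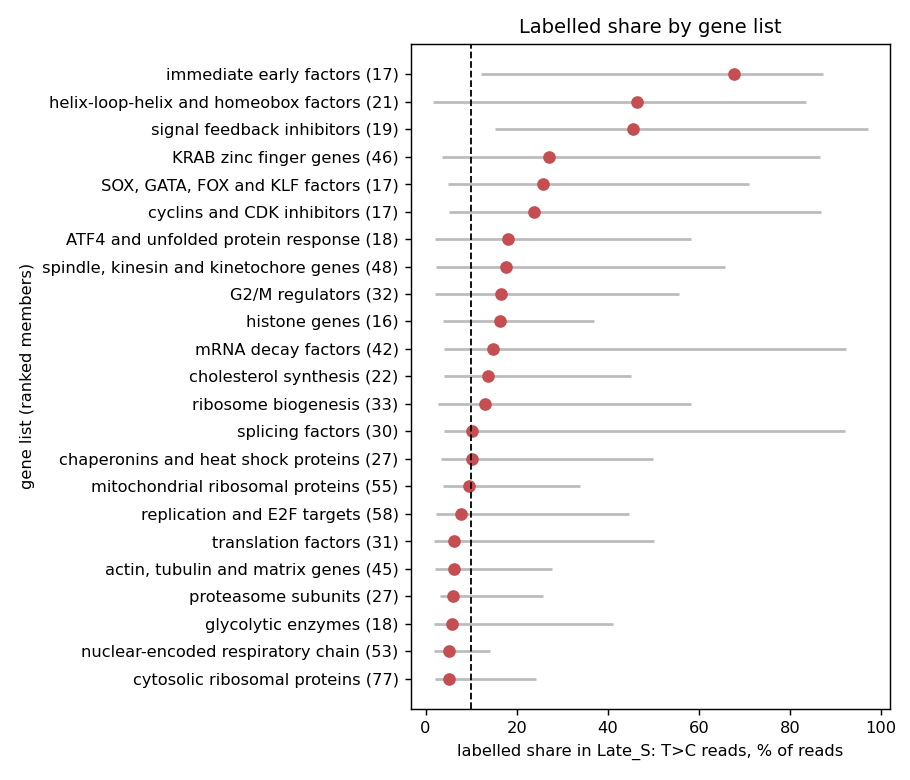
Labelled share in Late_S of 23 gene lists, in percent of a gene's reads; the number of ranked members stands beside each name, the dot is the median, the line joins the lowest and the highest member, and the dashed line is the median of all ranked names, 9.91%. Immediate early factors stand at 67.6% and cytosolic ribosomal proteins at 5.12%.

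Genes of the cell cycle lay between these groups. G2/M regulators had 17 of 32 tested members higher and 3 lower, against 22.3% and 25% of all names, with a median share of 16.6%. Spindle, kinesin and kinetochore genes had 27 of 49 higher and 6 lower, with 17.6%. CCNB1, the mitotic cyclin, had 34.8%, 34.1% and 31.7% (log2 2.002 ± 0.10, adjusted p = 1.22e-13). CCNA2, the cyclin of S and G2, had 27.3%, 27.5% and 30.9% (log2 1.67 ± 0.16, adjusted p = 4.55e-09), and PLK1, a mitotic kinase, averaged 20.4% ± 1.25 (log2 1.02 ± 0.14, adjusted p = 1.17e-06). CKS2, a small CDK-binding protein, averaged 52.8% ± 1.31, and MYBL2 was the lowest member of its list. CCND1, the G1 cyclin, averaged 22.0% ± 0.512 (log2 1.17 ± 0.10, adjusted p = 6.43e-10).

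Of 60 genes of DNA replication and E2F targets, 16 were higher and 26 lower, against 22.3% and 25% of all names, and their median share was 7.86%, against 9.91%. PCNA, the sliding clamp of DNA polymerase, had 8.70%, 13.1% and 10.9%, with a log2 of -0.06 ± 0.19 (adjusted p = 0.822). TOP2A, the topoisomerase that untangles replicated DNA, averaged 10.3% ± 1.63 (log2 -0.15 ± 0.16, adjusted p = 0.466). RRM2, which codes for the small subunit of the enzyme that makes deoxyribonucleotides, averaged 13.4% ± 0.733 (log2 0.30 ± 0.10, adjusted p = 0.0151), and without replicate 2 or 3 its adjusted p was 0.0923 or 0.0547. CCNE1, the cyclin of the G1/S transition, averaged 15.3% ± 0.278 (log2 0.52 ± 0.16, adjusted p = 0.0118), with an adjusted p of 0.0628 without replicate 1. DUT, which removes dUTP, averaged 2.60% ± 0.333. LIG1, listed highest at 44.7%, had 51.3% in No_alkylation, so its share is background, though it is counted among the 16 higher. Histone genes had 11 of 23 higher and 4 lower; HIST1H4C averaged 37.1% ± 2.13 and H2AFZ, a replication-independent variant, 6.07% ± 0.443 (SD, n = 3 each). Replication-dependent histone messages lack a poly(A) tail for the most part, so a library made from poly(A) RNA reads a minority of them.

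Of 77 tested cytosolic ribosomal protein genes, 72 fell in T>C reads and 2 rose, against 25% and 22.3% of all names, with a median share of 5.12%. By median their reads covered 13.3 T positions, against 19.4 for all ranked names, and fewer T positions leave fewer chances to see a conversion. When names over 20% multimapped were left out of the comparison between phases, 37 of the 77 remained. The 2 that rose were RPS29 at 24.2% and RPL30 at 14.7%, which had 22.8% and 12.5% in No_alkylation. RPL37, next in share, averaged 12.2% beside 0.898% and was not called (adjusted p = 0.3025, edgeR). RPS10 was lowest at 2.11%, with 65.1% of its reads multimapped. Nuclear-encoded respiratory chain genes had 46 of 53 lower and 1 higher (median 5.16%), proteasome subunits 22 of 28 lower and 2 higher (6.05%), glycolytic enzymes 14 of 20 lower and 2 higher (5.79%) and translation factors 23 of 32 lower and 5 higher (6.20%). GAPDH, the glycolytic dehydrogenase, had 3.15%, 3.12% and 3.39% on 144410, 150755 and 166989 reads (log2 -1.92 ± 0.04, adjusted p = 1.59e-20). SLC2A1, the glucose transporter listed with the glycolytic enzymes, averaged 41.1% ± 4.41, and EIF4A2, a helicase of translation initiation, 50.2% ± 1.03, so single members left their lists (SD, n = 3 each).

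Actin, tubulin and matrix genes had 32 of 45 lower and 6 higher, against 25% and 22.3% of all names, with a median of 6.14%. VIM, the mesenchymal filament protein, averaged 7.32% ± 0.202 (log2 -0.67 ± 0.05, adjusted p = 2.65e-10), ACTB, cytoplasmic actin, 7.39% ± 0.192 (log2 -0.66 ± 0.05, adjusted p = 5.52e-11) and EEF1A1, which carries aminoacyl-tRNA to the ribosome, 7.02% ± 0.343 (log2 -0.74 ± 0.04, adjusted p = 1.10e-13). Of the reads of ACTB 77.2%, and of EEF1A1 99.3%, were multimapped, so their values are shared with near-identical copies. Chaperones were mixed, with 11 of 27 higher and 13 lower: DNAJB1, a cochaperone of the heat shock response, averaged 49.9% and CCT7, of the chaperonin ring, 3.38%. Genes of the ATF4 and unfolded protein response were mixed too, with 11 of 21 higher and 6 lower, from XBP1, its transcription factor, at 58.2% to ASNS, asparagine synthetase, at 2.10%. Splicing factors had 14 of 31 higher and 11 lower (median share 10.2%), and mitochondrial ribosomal proteins 11 of 55 and 22 (9.51%). Ribosome biogenesis had 13 of 33 higher and 9 lower (13.0%), cholesterol synthesis 7 of 23 and 6 (13.7%), mRNA decay factors 16 of 45 and 7 (14.8%), and cyclins and CDK inhibitors 14 of 20 and 3 (23.8%). Counts near the shares of all names are not read as a result about a list.

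The make-up of the new pool differed from that of the old one. Immediate early genes held 0.938% ± 0.00568 of all T>C reads and 0.0527% ± 0.00143 of all other reads of Late_S (SD, n = 3). Ribosomal protein genes held 6.47% ± 0.194 of T>C reads and 12.5% ± 0.233 of other reads, and glycolytic enzymes 0.936% ± 0.0406 and 2.14% ± 0.0150. The values of the 2 read kinds did not overlap between libraries in these 3 lists, nor in most of the lists drawn. Mitochondrial ribosomal proteins, near balance, held 0.720% to 0.749% of T>C reads and 0.692% to 0.713% of other reads. Splicing factors did overlap. Non-overlap is therefore not read as a result about a list. Both kinds come from the same 3 libraries and no test was made. The most read names together held 50% of T>C reads with 874 to 898 names, and 50% of other reads with 555 to 562, so T>C reads were spread over more names. RPS29 ranked 1st among T>C reads, with 0.853% of them, and RPL30 20th. Their shares in No_alkylation were 22.8% and 12.5%, so the T>C pool, and the 6.47% of ribosomal protein genes within it, hold background reads. ID1 ranked 8th among T>C reads and 2443rd among other reads, ZFP36L1 9th and 3057th, and CTGF 19th and 4599th.

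**Figure D4:**
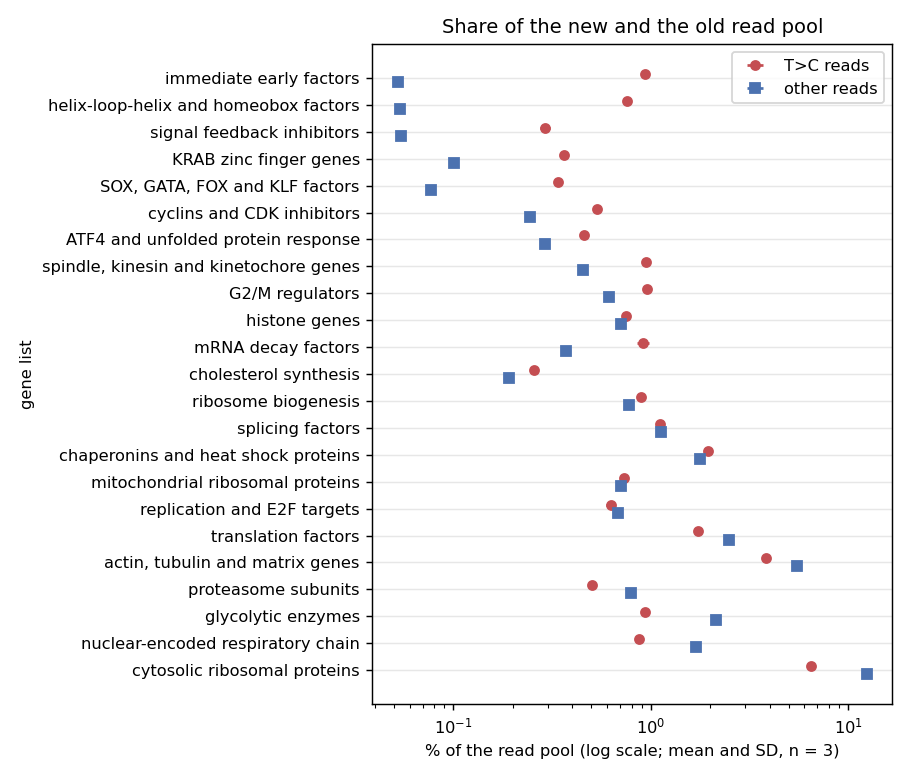
Share of all T>C reads (circles) and of all other reads (squares) of a Late_S library held by each of 23 gene lists, as mean and SD of 3 libraries in percent on a log axis. Immediate early factors hold 0.938% of T>C reads and 0.0527% of other reads, and cytosolic ribosomal proteins 6.47% and 12.5%.

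The ranking was then set against the other phases, whose overall labelled shares were 22.3% ± 0.740 in G1, 18.4% ± 0.516 in Early_S and 10.1% ± 0.336 in G2 (SD, n = 3 each). The fastest 100 of Late_S had 52 names in common with the fastest 100 of G1, 51 with those of Early_S and 83 with those of G2, and the slowest 100 had 21, 23 and 24. Because overall labelling differed, a relative comparison was made, in which each read kind was scaled by its own TMM factor before edgeR's test of the read kind by phase term. Against the mean of the other 3 phases, 174 of 11291 names were higher in Late_S (1.54%) and 240 lower (2.13%). Without Late_S replicate 1, 2 or 3 these were 92, 96 and 91 higher and 118, 135 and 118 lower, and DESeq2 called 293 and 454. Scaled to all reads instead, 4 were higher and 4554 lower, so a call of higher is relative to the lower overall share of Late_S and need not be a higher share.

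Names called lower in Late_S had a median share of 12.7% in Late_S, 48.7% in G1, 46.4% in Early_S and 15.7% in G2, where all tested names had 10.9%, 28.5%, 21.9% and 10.2%. EPS8, an adaptor of growth factor receptors, had 0.263%, 2.34% and 2.39% in Late_S, and averaged 46.4% in G1, 30.9% in Early_S and 13.1% in G2 (log2 -3.64 ± 0.70, adjusted p = 0.00338). ZNF704 averaged 2.77% in Late_S, against 51.4%, 33.9% and 11.5% in the same phases (log2 -2.91 ± 0.53, adjusted p = 0.00198). GPC4, a glypican of the cell surface, S1PR3, a receptor for sphingosine 1-phosphate, MFSD1, a lysosomal transporter, and the joined name AC131160.1,MAP6D1 complete the 6 lowest, at log2 -3.27, -3.47, -3.26 and -3.16. The call of GPC4 was lost without any single Late_S library (adjusted p up to 0.138), that of S1PR3 without Late_S replicate 1 or 3 (up to 0.113) and that of MFSD1 without replicate 2 or 3 (up to 0.115). Of the replication list, 12 of 60 were lower and 0 higher, against 2.13% and 1.54% of all names. The count fell to 4 when any 1 Late_S library was left out. It was 8 of 57 without names over 20% multimapped, and 8 of 60 after background T>C reads were subtracted. PCNA averaged 10.9% in Late_S, against 41.8% in G1, 36.6% in Early_S and 15.5% in G2 (log2 -0.92 ± 0.17, adjusted p = 0.00201). CCNE1 averaged 15.3%, against 60.4%, 50.5% and 17.9% (log2 -1.06 ± 0.15, adjusted p = 0.000181).

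Names called higher were of several kinds. KIF20A, a kinesin of late mitosis, averaged 26.6% in Late_S, against 7.66% in G1, 45.4% in Early_S and 17.2% in G2 (log2 1.49 ± 0.26, adjusted p = 0.00169). TNFAIP8L1 averaged 29.4%, against 9.26%, 30.6% and 26.9% (log2 1.65 ± 0.28, adjusted p = 0.000902). MED26 and DUSP2, a second MAP kinase phosphatase, were highly labelled in all phases, MED26 at 95.3% in Late_S, 82.3% in G1, 93.5% in Early_S and 94.5% in G2 (log2 1.94 ± 0.51, adjusted p = 0.0309), so a share close to 100% moved the log ratio with few points. MED26 lost its call without Late_S replicate 1 or 3, Early_S replicate 1 or G1 replicate 2 (adjusted p up to 0.239), and DUSP2 without Late_S replicate 1 (0.0508). CINP had 34.4% in No_alkylation and lost its call without Late_S replicate 1 or 2, and WASHC3 had 5.99% there and lost its call without any single Late_S or G1 library and without Early_S replicate 1 or 3, so neither is read further. Among ribosomal protein genes 43 of 77 were called higher and 0 lower on this relative scale, against 1.54% and 2.13% of all names. Of these genes, 25 to 29 were higher without single Late_S libraries, and 29 after background T>C reads were subtracted. Without names over 5% in No_alkylation, 41 of 74 were higher and 0 lower. With all-read totals 0 were higher and 69 lower. The 43 include RPS29, whose share was 24.2% in Late_S, 25.4% in G1, 24.0% in Early_S and 23.8% in G2, beside 22.8% in No_alkylation, and RPL30, with 12.5% in No_alkylation. Because the direction of the calls depends on the scaling, the 43 are not read further either.

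**Figure D5:**
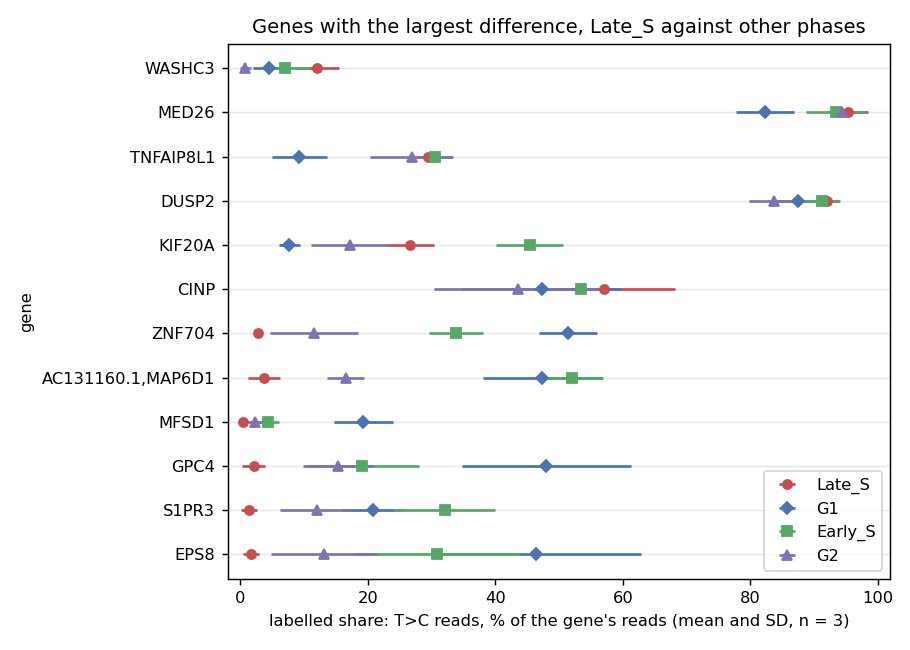
Labelled share, in percent of a gene's reads, of the 12 names with the largest called difference between Late_S and the mean of the other phases, as mean and SD of 3 libraries per phase. EPS8 stands at 1.66% in Late_S and 46.4% in G1, and MED26 at 95.3% in Late_S and 82.3% in G1.

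Late_S and G2, which had similar overall labelling, differed in 5 of 11291 names, 3 higher (0.0266%) and 2 lower (0.0177%), all named here because they are few. KRTAP2-3, a keratin-associated protein, averaged 46.3% ± 0.736 in Late_S and 32.4% ± 4.42 in G2 (log2 0.83 ± 0.12, adjusted p = 0.00418). ANKRD1, a target of YAP, averaged 76.8% ± 0.393 in Late_S and 67.3% ± 0.612 in G2 (log2 0.66 ± 0.10, adjusted p = 0.0057), and MT2A, a metallothionein, 4.66% ± 0.198 and 3.59% ± 0.180 (log2 0.36 ± 0.07, adjusted p = 0.027). DUT averaged 2.60% ± 0.333 in Late_S and 6.54% ± 1.60 in G2 (log2 -1.40 ± 0.21, adjusted p = 0.00418), and HIST1H4C 37.1% ± 2.13 and 52.3% ± 2.09 (log2 -0.93 ± 0.16, adjusted p = 0.0264; SD, n = 3 each). Against the mean of the other 3 phases, edgeR called KRTAP2-3 (log2 -0.54, adjusted p = 0.00193) and MT2A (log2 -0.30, adjusted p = 0.00201) lower in Late_S. ANKRD1 was called higher there too (log2 0.78, adjusted p = 5.27e-06). KRTAP2-3 averaged 80.8% in G1 and 86.3% in Early_S, and MT2A 15.9% and 16.5%. In the comparison with G2, KRTAP2-3 kept its call without any single library. ANKRD1 lost it without Late_S replicate 2 or 3 (adjusted p up to 0.0537), DUT without Late_S replicate 3 (0.0517), HIST1H4C without Late_S replicate 2 or 3 or G2 replicate 1 or 2 (up to 0.146), and MT2A without any single Late_S library or G2 replicate 1 or 3 (up to 0.144). At an unadjusted p under 0.05, 501 names were higher and 448 lower, and DESeq2 called 44 and 30.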

How the data were processed

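Per the file headers, the authors counted reads with slamdunk 0.2.4, and per the submitters' processing notes the genome build was hg38; the aligner's settings and the annotation are not stated in what was used here. Each of the 15 deposited tables lists 68625 regions (median 148 bases) with counts of reads, T>C reads, multimapped reads, covered T positions and conversions, which were used as deposited. The conversion rate deposited as a fraction and the deposited CPM were not used for tests; CPM printed here was computed from the summed counts. Counts were summed by name; 159 ranked names with over 5% T>C reads in No_alkylation were set aside from the fastest and slowest 100, leaving 8675. A count of 0 allows up to 3 counts. Intervals and floors cover counting error only, since PCR copies were not removed.

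Tests used edgeR 4.0.16 in R 4.3.3 (trended dispersion, filterByExpr with 10 counts) and DESeq2 1.42.0 as an alternative, and were tested on simulated data. The SE is the log2 change over the root of F. Genes were named by rule: the 15 highest and 15 lowest shares among names of 1 gene with at most 5% in No_alkylation and at most 20% multimapped reads, list extremes, the 6 largest called phase differences each way, and 20 fixed genes; some list extremes are not printed, and a few items are not reported here. Members, lists and alternatives were chosen with earlier results of these data known. None of the 25 listed snoRNA host and nuclear noncoding RNAs was found by its listed name; blood markers were not ranked. Neural markers summed to 69.0 to 74.5 CPM in Late_S. Of ranked names 8588 were matched to RefSeq. Deviations of same-numbered libraries from their group means correlated between -0.02 and 0.03, so replicate numbers were not taken as pairs.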

Additional observations from a re-analysis of the deposited data

Results flagged for a closer look

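The difference between Late_S and the other phases was tested itself, as the read kind by phase term of edgeR's quasi-likelihood fit over 12 libraries, and the named genes below passed an adjusted p under 0.05. All values are log2 differences of the T>C to other ratio after each read kind was scaled by its own TMM factor, so they are relative to all names and a value above 0 need not be a higher labelled share. Against the mean of G1, Early_S and G2, the values above 0 were 3.18 for WASHC3, 1.94 for MED26, 1.65 for TNFAIP8L1, 1.55 for DUSP2, 1.49 for KIF20A and 1.43 for CINP. Among the fixed genes they were 1.18 for MYC, 1.00 for JUN, 0.66 for CCNB1, 0.48 for ID1, 0.37 for ACTB, 0.29 for GAPDH and 0.28 for VIM. Scaled by all-read totals, the signs of ID1, CCNB1, ACTB, GAPDH and VIM turned. GAPDH had a labelled share of 3.22% in Late_S, against 7.10% in G1, 4.13% in Early_S and 3.74% in G2.

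The values below 0 were -3.64 for EPS8, -3.47 for S1PR3, -3.27 for GPC4, -3.26 for MFSD1, -3.16 for AC131160.1,MAP6D1, -2.91 for ZNF704, -1.06 for CCNE1, -0.92 for PCNA and -0.39 for RRM2. Against G2, the values were 0.83 for KRTAP2-3, 0.66 for ANKRD1, 0.36 for MT2A, -0.93 for HIST1H4C and -1.40 for DUT. Against the mean of the other phases, KRTAP2-3 and MT2A were called lower, at -0.54 and -0.30, and ANKRD1 higher, at 0.78. MYC lost its call without Late_S replicate 2 or 3, CCNB1 without replicate 1, GAPDH without replicate 3, and VIM and RRM2 without any single Late_S library, RRM2 also without G1 replicate 1, Early_S replicate 1 or 3, or G2 replicate 3.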

How the results depend on the processing

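The counts of names in T>C against other reads stayed within 1.5 times under all alternatives except a test for a log2 difference beyond 1, which left 1528 higher and 1180 lower. Without single replicates they were 2341 to 2381 and 2538 to 2609, and without the replicate block 2902 and 3038. Late_S against No_alkylation gave 8425 to 8617 names without single replicates and 9133 with the replicate block. Against the other phases, DESeq2 called 293 higher and 454 lower, all-read totals without TMM 4 and 4554, and subtraction of background T>C reads, added after seeing the data, 115 higher. Without single libraries the counts were 91 to 186 and 118 to 264, lowest without Late_S libraries, and with the replicate block 181 and 237. Against G2, DESeq2 called 44 and 30, no low-count filter 19 and 13, at least 100 reads 6 higher, all-read totals 7 and 1, background subtraction 1 lower, and single libraries left out 1 to 6 and 0 to 2; the replicate block left 3 and 2.

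With all-read totals, 9 named genes changed sign against the other phases: ID1 -0.41, CCNB1 -0.23, GAPDH -0.60, VIM -0.61, IER2 -0.58, CCND1 -0.75, PLK1 -0.84, ACTB -0.52 and EEF1A1 -0.88. The median log2 of all names was -0.92 under all-read totals and -0.03 under TMM; for T>C against other reads it was -0.09 under library totals and -0.26 under TMM. All-read totals do not set aside the lower overall share of Late_S. The mean library share was 10.6% without names over 20% multimapped, 9.83% without names over 5% in No_alkylation and 10.01% to 10.10% without single replicates. The median share of ranked names was 9.64% at 200 reads, 9.02% less background, 9.68% in the region with most reads and 9.81% to 9.97% without single replicates. Less background, 60 of the slowest 100 were kept, and 55 to 62 without single replicates; the cause was not tested. At 100 to 300 reads the median SD over names of all shares was 5.43 points and the median counting SD 2.27 points.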
